A study of Mus musculus with 24 samples.

Results

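NMDA receptor subunit RNA was followed in mouse cortical neurons treated with a BET inhibitor, a growth factor, or both. The genes considered were Grin1, Grin2a, Grin2b, Grin2c, Grin2d and Grin3a, and every probe set that the array's annotation assigns to 1 of them alone was taken, whatever its values. This gave 11 of 45101 probe sets, from 5 of the 6 genes, among 18193 genes with a probe set of their own. Grin2a and Grin2c had 1 probe set each, Grin2d had 2, Grin3a had 3 and Grin2b had 4. The annotation used here names no probe set for Grin1, so Grin1 was not analysed here. Each probe set is given separately, because different probe sets of 1 gene need not read the same transcripts.

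The RNA came from primary cortical neurons taken from mice at embryonic day 18 and kept in culture for 1 week. The cultures then received 50 ng per ml BDNF together with 1 µM IBET858, 1 µM IBET858 alone, 50 ng per ml BDNF alone, or the solvent DMSO, for 2 h or 12 h. IBET858 blocks BET proteins, readers of acetylated histones that help RNA polymerase to elongate, and BDNF is a neurotrophin that acts through the receptor TrkB. Each of the 8 groups had 3 arrays, 24 in all, on an Affymetrix mouse expression array that reads each transcript with sets of short probes. Strain and genotype are not given in the sources used here. The labels do not say whether replicates were separate cultures, so p-values measure only the spread between these samples. The precision is limited by the number of arrays. In such bulk RNA, fewer cells of a type and less RNA per cell cannot be told apart.

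NMDA receptors are glutamate-gated channels that pass calcium and need glycine or D-serine as a co-agonist. Each channel combines the obligatory GluN1 subunit, made from Grin1, with GluN2 subunits (Grin2a to Grin2d), which bind glutamate, or with GluN3 subunits such as the Grin3a product. In the forebrain GluN2B prevails in young neurons and GluN2A is added as they mature, while GluN3A lowers calcium entry and is most abundant early in postnatal life. The subunit makeup of the receptor sets its kinetics and its coupling to signalling partners at the synapse.

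All values below are log2 values relative to the median of the same probe set over the 24 arrays, because the deposited table is centred in that way. They show differences between arrays and not how abundant a transcript was, and the levels of different probe sets cannot be compared. Differences are in log2 units, followed by the limma model's standard error, with n = 3 arrays per group. A probe set was called at a Benjamini-Hochberg adjusted p under 0.05 over all 45037 probe sets tested.

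Grin3a moved furthest. After 12 h, 2 of its 3 probe sets were 2.90-fold and 3.25-fold lower with IBET858 than with DMSO, and 2.06-fold and 2.15-fold higher with BDNF than with DMSO. With both agents together they lay close to DMSO. Grin2b split by probe set: 1442370_at and 1457003_at fell with IBET858 alone, whereas 1422223_at and 1431700_at rose with BDNF. Grin2a rose with BDNF, and 1 of the 2 Grin2d probe sets fell with IBET858. Grin2c was called only in comparisons that involve the 2 h group given both agents.

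**Figure D1:**
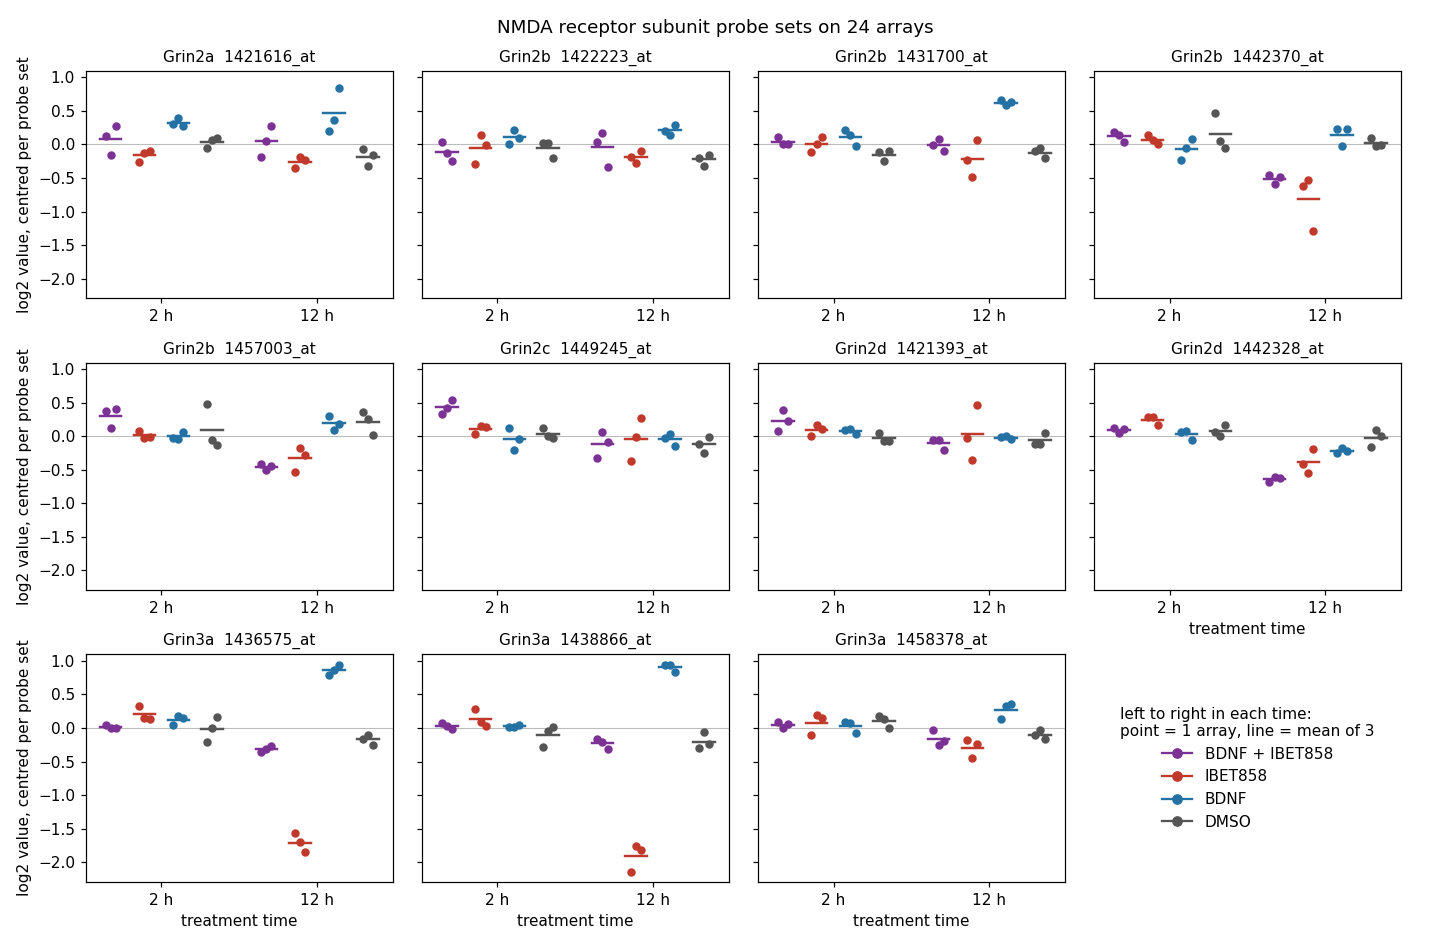
Log2 values, centred per probe set (y axis), of the 11 NMDA receptor probe sets on 24 arrays, by treatment time (x axis). Points are arrays and lines are means of 3 arrays, and in each time the groups run from BDNF with IBET858 through IBET858 and BDNF to DMSO. At 12 h the IBET858 arrays of Grin3a 1436575_at and 1438866_at lie between -2.14 and -1.57, below all other arrays.

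Counted over the 11 probe sets, the early and late comparisons differed. At 2 h, 0 were called for IBET858 against DMSO, where 11.8% of all probe sets were called in either direction, and 0 for BDNF against DMSO, where 23.1% were. At an unadjusted p under 0.05 the counts were 2 and 2. At 12 h, IBET858 against DMSO called 5 lower and 0 higher, while 20.6% of all probe sets were called lower and 20.8% higher. With BDNF present, IBET858 called 8 lower and 0 higher at 12 h, against a background of 20.4% lower and 19.8% higher. BDNF against DMSO at 12 h called 6 higher and 0 lower, against 15% higher and 18.4% lower. Genes repeat in these counts, so the probe sets are not separate observations. The 5 lower came from Grin3a, Grin2b and Grin2d, and the 6 higher from Grin3a, Grin2b and Grin2a. IBET858 against DMSO and BDNF against DMSO share the DMSO arrays, so their values for the same probe sets are not independent. BDNF with IBET858 against BDNF and BDNF against DMSO share the BDNF arrays, with opposite sign. A high BDNF array therefore lowers the former and raises the latter. The median difference at 12 h over the 11 probe sets was -0.19 for IBET858 against DMSO, beside 0.06 over all probe sets. It was -0.43 for BDNF with IBET858 against BDNF, beside 0.01, and 0.37 for BDNF against DMSO, beside 0.00.

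**Figure D2:**
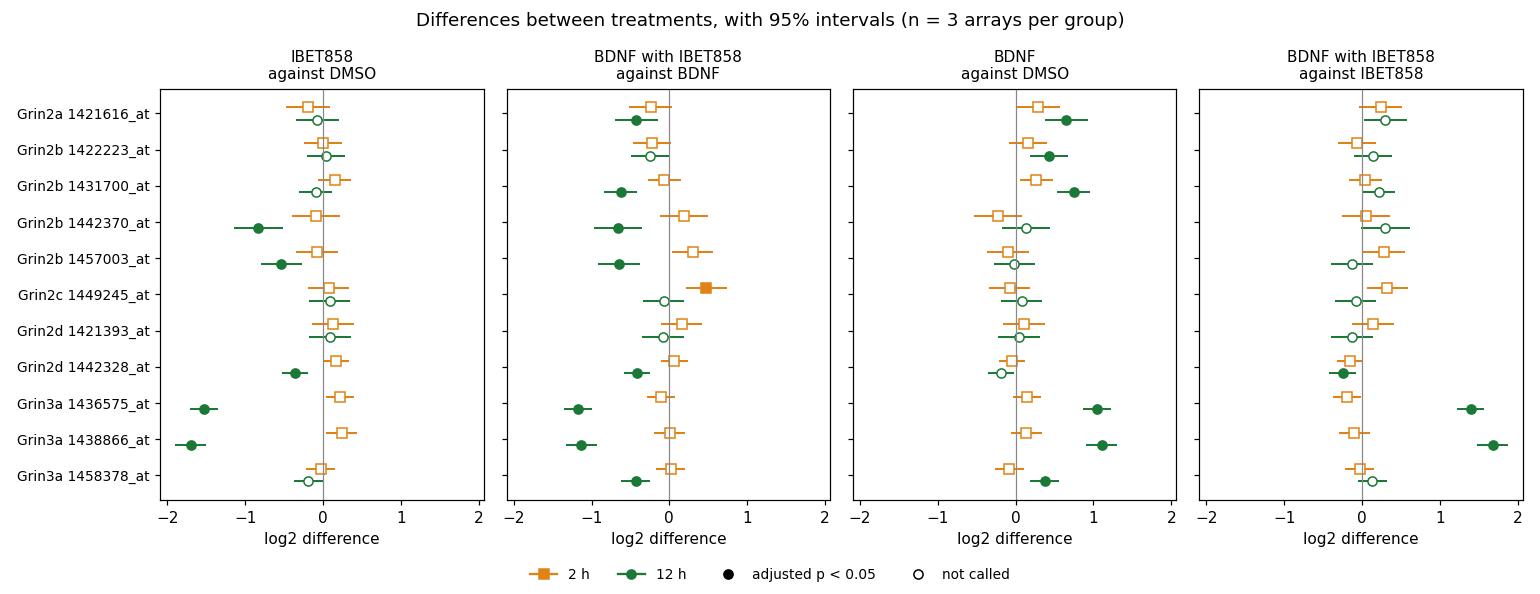
Log2 differences (x axis) of the 11 probe sets (y axis) in 4 comparisons at 2 h (squares) and 12 h (circles), with 95% intervals and n = 3 arrays per group. Filled symbols passed an adjusted p of 0.05; at 2 h that was 1 symbol, Grin2c 1449245_at in BDNF with IBET858 against BDNF.

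Grin2a, which encodes the GluN2A subunit of mature synapses, has the probe set 1421616_at, built on a RefSeq mRNA. After 12 h it was at 0.21, 0.37 and 0.84 on the BDNF arrays, against -0.07, -0.32 and -0.16 on the DMSO arrays. The groups did not overlap, and Grin2a was higher by 0.65 ± 0.13 (1.57-fold, adjusted p = 0.00055). BDNF replicate 3 was the highest of the 24 arrays for this probe set.

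IBET858 alone gave no call for Grin2a at 12 h, with -0.34, -0.19 and -0.23 against the same DMSO arrays (-0.07 ± 0.13, adjusted p = 0.698, 95% interval -0.35 to 0.21). The interval thus still holds a change of modest size in either direction. With BDNF present, Grin2a was at -0.19, 0.05 and 0.28 on the arrays given both agents, against 0.21, 0.37 and 0.84 with BDNF alone. These groups overlapped, the difference was -0.42 ± 0.13 (adjusted p = 0.0141), and the call was lost without BDNF replicate 3 (-0.24, adjusted p = 0.143) or without replicate 1 of the group given both agents (-0.31, adjusted p = 0.101). The test of whether the IBET858 difference depends on BDNF gave -0.35 ± 0.19 for Grin2a (adjusted p = 0.271). At 2 h Grin2a was at 0.31, 0.39 and 0.27 with BDNF, against -0.05, 0.06 and 0.10 with DMSO, which do not overlap but did not pass the test over all probe sets (0.29 ± 0.13, adjusted p = 0.144).

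Grin2b encodes GluN2B, the main glutamate-binding subunit of young forebrain neurons. Its 4 probe sets rest on different source sequences: 1422223_at on a RefSeq mRNA, 1431700_at on a RIKEN cDNA, and 1442370_at and 1457003_at on expressed sequence tags. Where each of them lies in the gene was not analysed here. Over the 8 group means the RefSeq and RIKEN probe sets correlated at r = 0.857 and the 2 tag-based ones at r = 0.879, whereas r was between 0.127 and 0.418 across these pairs. These correlations describe 8 points that share their arrays.

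The tag-based Grin2b probe sets were lower with IBET858. Probe set 1442370_at was at -0.62, -0.53 and -1.29 on the IBET858 arrays at 12 h, against 0.09, -0.03 and -0.01 on the DMSO arrays. The groups did not overlap (-0.83 ± 0.15, 1.78-fold lower, adjusted p = 9.94e-05), and IBET858 replicate 3, the lowest array, also had the widest spread around its group over all probe sets. Without that array the difference was -0.59 and stayed called, with an adjusted p = 0.000431. Probe set 1457003_at was at -0.53, -0.17 and -0.28 with IBET858, against 0.35, 0.26 and 0.01 with DMSO, again without overlap (-0.53 ± 0.13, adjusted p = 0.00185).

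Both tag-based probe sets were lower with IBET858 in the presence of BDNF too. For 1442370_at the arrays given both agents were at -0.46, -0.59 and -0.48, against 0.23, -0.02 and 0.23 with BDNF alone (-0.66 ± 0.15, adjusted p = 0.00101). For 1457003_at they were at -0.41, -0.50 and -0.45, against 0.30, 0.09 and 0.18 (-0.65 ± 0.13, adjusted p = 0.000277). No array overlapped in either comparison. BDNF alone gave neither a call, at 0.13 ± 0.15 (adjusted p = 0.576) and -0.02 ± 0.13 (adjusted p = 0.95).

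The other two Grin2b probe sets were higher with BDNF. Probe set 1431700_at was at 0.66, 0.58 and 0.63 on the BDNF arrays at 12 h, against -0.10, -0.06 and -0.21 on the DMSO arrays. The BDNF arrays lay well above the DMSO arrays (0.74 ± 0.10, 1.68-fold, adjusted p = 5.17e-06). Probe set 1422223_at, on the RefSeq mRNA, was at 0.20, 0.13 and 0.29 with BDNF, against -0.20, -0.32 and -0.15 with DMSO (0.43 ± 0.12, adjusted p = 0.00605).

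IBET858 alone left both without a call at 12 h: 1431700_at at -0.23, -0.49 and 0.07 (-0.10 ± 0.10 against DMSO, adjusted p = 0.484), and 1422223_at at -0.19, -0.27 and -0.10 (0.04 ± 0.12, adjusted p = 0.825). The 3 IBET858 arrays of 1431700_at were far apart. Without replicate 3, its difference was -0.24 and was called (adjusted p = 0.044). With BDNF present, 1431700_at was at -0.0029, 0.08 and -0.09 on the arrays given both agents, against 0.66, 0.58 and 0.63 with BDNF alone, a difference of -0.63 ± 0.10 (adjusted p = 2.78e-05) without overlap. For 1422223_at the same comparison gave -0.25 ± 0.12 (adjusted p = 0.106), with 0.04, 0.17 and -0.33 on the arrays given both agents, against 0.20, 0.13 and 0.29 with BDNF alone. It was called without replicate 2 of the group given both agents (-0.35, adjusted p = 0.0288), and was at -0.10 without that group's replicate 3.

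At 2 h none of the 4 Grin2b probe sets was called in the 4 treatment comparisons. Probe set 1431700_at was at 0.22, 0.14 and -0.02 with BDNF, against -0.11, -0.25 and -0.09 with DMSO. The arrays did not overlap, and the difference was 0.26 ± 0.10 (adjusted p = 0.0696). It was called without BDNF replicate 3 at 2 h (0.33, adjusted p = 0.0437), and without IBET858 replicate 2 or 3 at 12 h (adjusted p = 0.0263 and 0.0197), and under 4 other settings (0.26 to 0.35). Probe set 1457003_at was at 0.38, 0.12 and 0.40 with both agents, against -0.03, -0.04 and 0.07 with BDNF alone (0.30 ± 0.13, adjusted p = 0.104), and was called without DMSO replicate 1 at 2 h (adjusted p = 0.0287). The 2 h differences ranged from -0.22 to 0.16 for 1422223_at and from -0.23 to 0.19 for 1442370_at.

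The dependence of the IBET858 difference on BDNF at 12 h was tested. For 1431700_at it was -0.53 ± 0.14 (adjusted p = 0.019), more negative with BDNF present than without it. This call was lost without replicate 3 of the 12 h group given both agents (-0.49, adjusted p = 0.0546) and with arrays weighted by their agreement (-0.40, adjusted p = 0.0547). It was also lost when only the 12 h groups were fitted, with an adjusted p = 0.0664 at the same difference of -0.53. The other Grin2b probe sets gave -0.28 ± 0.17 (1422223_at, adjusted p = 0.314), 0.17 ± 0.21 (1442370_at, adjusted p = 0.676) and -0.11 ± 0.18 (1457003_at, adjusted p = 0.759). Over all probe sets 6.44% were called higher and 4.92% lower in this test at 12 h, and of the 11 members 1 was called each way. At 2 h the same test called 0 of the 11, with 3 at an unadjusted p under 0.05, beside 6.41% of all probe sets.

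Grin2c encodes GluN2C, a subunit best known from the cerebellum and from astrocytes. Its probe set 1449245_at was at 0.33, 0.42 and 0.53 at 2 h on the arrays given both agents, against 0.12, -0.21 and -0.05 with BDNF alone. The 3 arrays given both agents were the highest of all 24 for this probe set. The difference from BDNF alone was 0.47 ± 0.13 (1.39-fold, adjusted p = 0.00748). It was the 1 member called in this comparison, where 10.2% of all probe sets were called higher, and the call was lost without BDNF replicate 2 (0.39, adjusted p = 0.0523).

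Set against DMSO at 2 h (0.13, 0.0054 and -0.03), the same Grin2c arrays were higher by 0.40 ± 0.13 (adjusted p = 0.018). This comparison was added after the others had been seen, and 15.7% of all probe sets were called higher in it. The call was lost without DMSO replicate 2 (adjusted p = 0.0507), without DMSO replicate 3 (adjusted p = 0.0594) and without replicate 3 of the group given both agents (adjusted p = 0.0732). With IBET858 alone Grin2c was at 0.03, 0.15 and 0.13 at 2 h (0.07 ± 0.13 against DMSO, adjusted p = 0.803). After 12 h its differences lay between -0.08 and 0.08 in the 4 treatment comparisons, and none passed the test.

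Grin2d encodes GluN2D, found early in development and in interneurons. Its 2 probe sets moved differently. The tag-based 1442328_at was at -0.42, -0.55 and -0.19 on the IBET858 arrays at 12 h, against -0.17, 0.09 and -0.0013 on the DMSO arrays. The groups did not overlap (-0.36 ± 0.081, 1.29-fold lower, adjusted p = 0.00087). With both agents it was at -0.68, -0.61 and -0.63, against -0.26, -0.18 and -0.22 with BDNF alone, and fell by 0.42 on the log2 scale (SE 0.081, adjusted p = 0.000189). Quantile normalization, which narrows the arrays of widest spread in centred values, ended this call (-0.21, adjusted p = 0.0897).

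The 12 h arrays given both agents were the lowest 3 of the 24 for 1442328_at. They were below IBET858 alone by a small margin (-0.25 ± 0.081, adjusted p = 0.0205), and below DMSO by more (-0.61 ± 0.081, adjusted p = 1.31e-06). The call against IBET858 alone was lost without IBET858 replicate 3 (-0.15, adjusted p = 0.151) and without replicate 1 of the group given both agents (-0.23, adjusted p = 0.069). It was also lost under 5 other settings, with values from -0.25 to -0.11 (-0.11 with quantile normalization, adjusted p = 0.523). BDNF alone gave -0.19 ± 0.081 against DMSO without a call (adjusted p = 0.0718), although the arrays did not overlap. This difference was called with array weights (-0.21, adjusted p = 0.0189) and without DMSO replicate 1 at 12 h (-0.26, adjusted p = 0.0222). It was also called without IBET858 replicate 2 or 3 at 12 h (adjusted p = 0.0479 and 0.03). Leaving out both IBET858 replicate 3 at 12 h and DMSO replicate 1 at 2 h gave an adjusted p = 0.0292. The RefSeq-based 1421393_at was at -0.03, -0.36 and 0.47 with IBET858 at 12 h, which spans the DMSO arrays at -0.11, -0.11 and 0.04. With all arrays it passed the test in none of the 16 comparisons, with 12 h differences between -0.13 and 0.09 for the 4 treatment comparisons. Without IBET858 replicate 2 at 12 h it was called higher for IBET858 against DMSO (0.28, adjusted p = 0.0491). It was then also called lower for both agents against IBET858 at 12 h (-0.32, adjusted p = 0.0308). For both agents against DMSO at 2 h (0.26, adjusted p = 0.125) it was called with array weights (adjusted p = 0.0232), among other settings. At 2 h neither Grin2d probe set was called. Probe set 1442328_at was at 0.17 ± 0.081 for IBET858 against DMSO (adjusted p = 0.219) and was called there with quantile normalization (0.26, adjusted p = 0.0391) and with array weights (0.20, adjusted p = 0.0191). Probe set 1421393_at ranged from 0.10 to 0.16 over the 4 treatment comparisons at 2 h. Over the 8 group means the 2 Grin2d probe sets correlated at r = 0.590.

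Grin3a encodes GluN3A, which assembles into receptors of low calcium permeability. Its 3 probe sets all rest on expressed sequence tags. Over the 8 group means 1436575_at and 1438866_at correlated at r = 0.996, and the third, 1458378_at, with them at r = 0.913 and 0.886.

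With IBET858 at 12 h, 1436575_at was at -1.57, -1.70 and -1.86, against -0.16, -0.10 and -0.25 with DMSO. Probe set 1438866_at was at -2.14, -1.76 and -1.82, against -0.30, -0.07 and -0.25. In both the gap between the groups was several times the spread within them. The differences were -1.54 ± 0.086 (2.90-fold lower, adjusted p = 8.97e-12) and -1.70 ± 0.095 (3.25-fold lower, adjusted p = 8.67e-12). The third probe set, 1458378_at, was at -0.18, -0.45 and -0.25, against -0.11, -0.03 and -0.16. Its arrays did not overlap, but at -0.19 ± 0.089 it was not called (adjusted p = 0.0938). It was called with array medians set to 0 (-0.22, adjusted p = 0.0432) and without IBET858 replicate 1 at 12 h (-0.25, adjusted p = 0.0497). Quantile normalization of the arrays moved the first 2 differences to -0.99 and -1.11, which stayed called. On centred values this setting narrows arrays of wide spread, so it tends to make such differences smaller.

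BDNF moved Grin3a the other way at 12 h. Probe set 1436575_at was at 0.79, 0.87 and 0.94 on the BDNF arrays, 1438866_at at 0.94, 0.93 and 0.83, and 1458378_at at 0.14, 0.33 and 0.35. All 9 values lay above every DMSO array of the same probe set at 12 h. Against DMSO the 3 were higher by 1.04 ± 0.086 (2.06-fold, adjusted p = 5.18e-09), 1.11 ± 0.095 (2.15-fold, adjusted p = 9.08e-09) and 0.37 ± 0.089 (adjusted p = 0.00218).

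With both agents for 12 h, 1436575_at was at -0.35, -0.32 and -0.26, 1438866_at at -0.17, -0.21 and -0.31, and 1458378_at at -0.04, -0.25 and -0.19. For the first 2 probe sets these arrays lay between the BDNF arrays and the IBET858 arrays, with no overlap with either. Against BDNF alone the 3 were lower, by -1.18 ± 0.086 (adjusted p = 3.12e-10), -1.13 ± 0.095 (adjusted p = 2.84e-09) and -0.43 ± 0.089 (adjusted p = 0.000419). Against IBET858 alone the first 2 were higher by 1.39 ± 0.086 (adjusted p = 7.3e-11) and 1.68 ± 0.095 (adjusted p = 2.01e-11), and 1458378_at was at 0.13 ± 0.089 (adjusted p = 0.282). In this comparison 2 of the 11 members were called higher, beside 15% of all probe sets, and 1 lower, Grin2d 1442328_at, beside 17.8%. At 2 h it called 0 of the 11, with 3 at an unadjusted p under 0.05, beside 17.1% of all probe sets. At 12 h Grin2a was at 0.30 ± 0.13 in it, without overlap or a call (adjusted p = 0.0949). The Grin2b probe sets lay between -0.13 and 0.30 there, also uncalled. Grin2a was called without BDNF replicate 3 at 12 h (adjusted p = 0.0423), among others. Grin2b was called without an IBET858 array at 12 h: 1431700_at without replicate 3 (adjusted p = 0.00467), 1442370_at without replicate 2 (adjusted p = 0.033).

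Set against DMSO at 12 h, a comparison added later, the group given both agents showed no called Grin3a difference. The values were -0.14 ± 0.086 (95% interval -0.32 to 0.04, adjusted p = 0.203), -0.02 ± 0.095 (-0.22 to 0.17, adjusted p = 0.868) and -0.06 ± 0.089 (-0.24 to 0.13, adjusted p = 0.648). For 1436575_at the arrays given both agents lay below the DMSO arrays without overlap, while the other Grin3a probe sets overlapped. The same comparison called 3 of the 11 members lower, the tag-based probe sets Grin2b 1442370_at (-0.53 ± 0.15), Grin2b 1457003_at (-0.66 ± 0.13) and Grin2d 1442328_at, beside 24.2% of all probe sets.

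The IBET858 difference of Grin3a was smaller with BDNF than without it for 1438866_at, by 0.57 ± 0.13 (adjusted p = 0.00759). For 1436575_at the same test gave 0.36 ± 0.12 (adjusted p = 0.0657), and for 1458378_at -0.24 ± 0.13 (adjusted p = 0.255). Quantile normalization reduced the 1438866_at value to 0.17 (adjusted p = 0.644). Probe set 1436575_at was called without DMSO replicate 1 or 3 at 2 h (adjusted p = 0.0289 and 0.0442). It was also called without IBET858 replicate 1 at 12 h (0.43, adjusted p = 0.026), and over other settings its value reached down to 0.02. On the log2 scale used here, a dependence of the IBET858 difference on BDNF was thus called with all arrays for 1 of the 3 Grin3a probe sets.

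Times were compared next. At 2 h the IBET858 arrays of Grin3a 1436575_at were at 0.33, 0.15 and 0.13, against -0.21, 0.0024 and 0.16 with DMSO. They overlapped and pointed the other way from 12 h, without a call (0.22 ± 0.086, adjusted p = 0.115). For 1438866_at the 2 h values were 0.28, 0.09 and 0.02, against -0.29, -0.05 and 0.01 (0.24 ± 0.095, adjusted p = 0.126). The third Grin3a probe set, 1458378_at, ranged from -0.08 to 0.02 over the 4 treatment comparisons at 2 h. The IBET858 difference at 12 h minus that at 2 h was called lower in 4 of the 11 members, beside 13.3% of all probe sets. These were Grin3a 1436575_at (-1.76 ± 0.12, adjusted p = 1.62e-09), Grin3a 1438866_at (-1.94 ± 0.13, adjusted p = 1.64e-09), Grin2b 1442370_at (-0.74 ± 0.21, adjusted p = 0.0112) and Grin2d 1442328_at (-0.53 ± 0.11, adjusted p = 0.00116).

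With BDNF present, the IBET858 difference at 12 h minus that at 2 h was lower in 8 of the 11, beside 16% of all probe sets. The 8 were the 3 Grin3a probe sets, Grin2b 1431700_at, 1442370_at and 1457003_at, Grin2c, and Grin2d 1442328_at, with values between -1.13 and -0.45. The Grin2c call (-0.55 ± 0.18, adjusted p = 0.0209) set -0.07 at 12 h against 0.47 at 2 h, and was lost when any of 4 arrays was left out, with adjusted p between 0.0517 and 0.0685. These were BDNF replicate 2 and replicate 3 of the group given both agents at 2 h, and BDNF replicate 2 and replicate 1 of the group given both agents at 12 h.

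The BDNF difference at 12 h minus that at 2 h was higher in 4 of the 11, beside 9.63% of all probe sets: the 3 Grin3a probe sets (0.90 ± 0.12, 0.97 ± 0.13 and 0.45 ± 0.13) and Grin2b 1431700_at (0.48 ± 0.14, adjusted p = 0.0217). The last was lost without DMSO replicate 3 or BDNF replicate 3 at 2 h (adjusted p = 0.0522 and 0.0697) and without DMSO replicate 3 at 12 h (adjusted p = 0.0564). In DMSO alone, 12 h against 2 h called 0 of the 11, with 1 at an unadjusted p under 0.05, beside 6.68% of all probe sets. The members' DMSO differences between the times ranged from -0.22 for Grin2a to 0.11 for Grin2b 1457003_at.

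**Figure D3:**
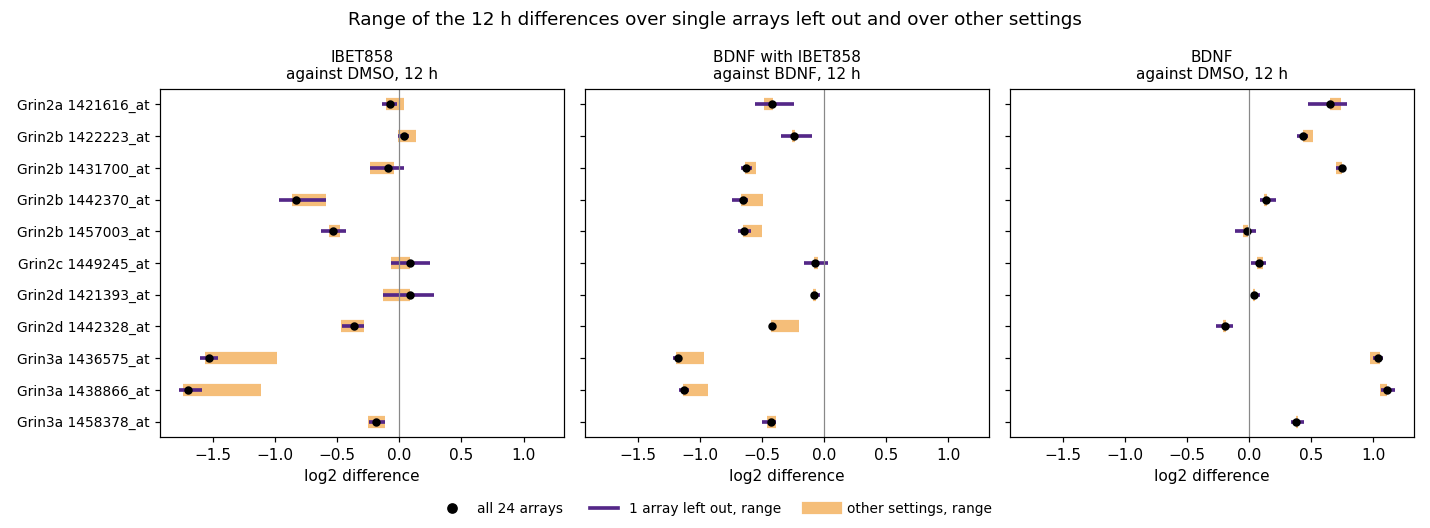
Log2 differences at 12 h (x axis) of the 11 probe sets (y axis) with all 24 arrays (points), their range when each array in turn was left out (thin lines), and their range over the other processing settings, gene means aside (thick bars). For Grin3a 1436575_at and 1438866_at in IBET858 against DMSO the bars reach to -0.99 and -1.11, the values after quantile normalization.

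Other parts of the glutamate receptor system were set beside the NMDA receptor at 12 h, as lists of genes chosen with earlier results of these data known. Over all probe sets, IBET858 against DMSO at 12 h called 20.6% lower and 20.8% higher. All 10 probe sets of the AMPA receptor genes, which encode the channels of fast excitatory transmission, were called lower with IBET858 than with DMSO, with a median of -0.86. Gria3 was at -1.59 ± 0.17, Gria1 at -1.44 ± 0.080, Gria2 at -0.89 ± 0.11 and Gria4 at -0.83 ± 0.12 on their probe sets with the largest change. Of 8 kainate receptor probe sets 5 were lower and 0 higher, with a median of -0.43, led by Grik1 at -1.22 ± 0.17 and Grik5 at -0.75 ± 0.089. Grik4 was at -0.52 ± 0.17 and Grik3 at -0.34 ± 0.14. Set beside these, the NMDA receptor count was 5 lower of 11, and no test compared the lists.

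BDNF against DMSO at 12 h called 5 AMPA receptor probe sets higher and 3 lower of 10, and 1 higher and 1 lower of the 8 kainate receptor probe sets. Over all probe sets it called 15% higher and 18.4% lower. Gria3 was higher by 1.89 ± 0.17, as Grin3a was by 1.04 and 1.11. With both agents against BDNF alone, the 10 AMPA receptor probe sets were all lower again, with a median of -1.28, and Gria3 was at -2.92 ± 0.17. Of all probe sets 20.4% were called lower in it.

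Scaffold proteins anchor NMDA receptors in the postsynaptic density. Of 32 scaffold probe sets from 13 genes, 17 were lower and 7 higher with IBET858 at 12 h, with a median of -0.33. Over all probe sets the shares were 20.6% lower and 20.8% higher. From this list to the co-agonist list, named genes are given on their called probe set with the largest change. Dlgap1, which links the PSD-95 family to Shank proteins, was at -1.23 ± 0.13, and Homer2 was at -1.09 ± 0.066. Dlg2, which encodes the PSD-93 scaffold, was at -0.89 ± 0.13. Homer1, whose long form ties Shank to metabotropic receptors and whose short form is induced by activity, was higher by 1.03 ± 0.12. With BDNF against DMSO 19 of the 32 were higher and 2 lower, beside 15% and 18.4% of all probe sets.

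Kinases, phosphatases and other effectors of the receptor were mixed, with 20 probe sets higher and 25 lower of 70 for IBET858 against DMSO at 12 h (median 0.01). Of all probe sets 20.8% were called higher and 20.6% lower in that comparison. Rasgrf2, a calcium-regulated exchange factor for Ras, was at -2.04 ± 0.068, and the kinase gene Src was at -1.31 ± 0.077. Nos1, the neuronal nitric oxide synthase, was at -1.23 ± 0.18 on 1 probe set and -0.77 ± 0.16 on another. Its other probe sets were not called, at 0.18 (adjusted p = 0.225) and -0.12 (adjusted p = 0.455). The protein kinase C gene Prkca was higher by 1.65 ± 0.081. Among 34 probe sets of traffic and auxiliary proteins 5 were higher and 11 lower (median -0.08). They included Neto1 (-1.14 ± 0.15), an auxiliary subunit that binds kainate and NMDA receptors, Snx27 (-0.63 ± 0.091), Pacsin1, an endocytic adaptor that binds GluN3A (-0.51 ± 0.083), and Lin7a (0.88 ± 0.15).

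Supply of the co-agonists glycine and D-serine gave 7 higher and 6 lower of 30 (median -0.07), beside 20.8% and 20.6% of all probe sets. The glycine transporter gene Slc6a9 was at -0.95 ± 0.10 and the serine synthesis gene Phgdh at -0.63 ± 0.086, while the amino acid transporter gene Slc1a4 was higher by 0.64 ± 0.13 and the serine synthesis gene Psat1 by 0.40 ± 0.096. Grin3b, which encodes the other GluN3 subunit and is not among the members, was at 0.16 ± 0.11 (adjusted p = 0.275). The delta receptor gene Grid1 was at -0.66 ± 0.12 on 1 probe set and at 0.26 ± 0.12 on the other.

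**Figure D4:**
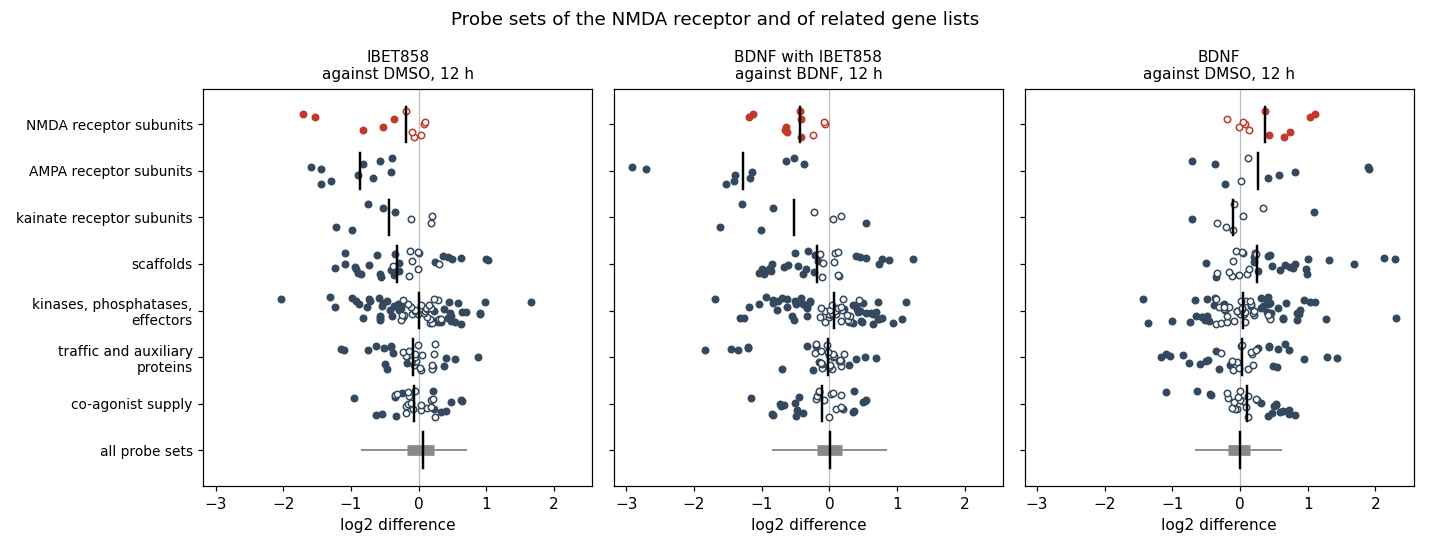
Log2 differences at 12 h (x axis) of the probe sets of the NMDA receptor and of 6 related lists (y axis), with filled points for an adjusted p under 0.05 and black bars for each list's median. The bottom line spans the 5th to 95th percentile of all probe sets, with the 25th to 75th percentile as a thick bar. The AMPA receptor points all lie left of 0 in both IBET858 panels.

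By the likeness of their pattern over the 8 group means, the genes nearest to Grin3a 1438866_at were Ergic2 (r = 0.987), Vstm2b (r = 0.984) and the scaffold gene Dlgap1 (r = 0.982). Over the 24 arrays r was 0.956, 0.972 and 0.952. Nearest to Grin2a were Sstr2 (r = 0.992), Tpbg (r = 0.974) and Dnajb6 (r = 0.974). Nearest to Grin2b 1442370_at were Pced1a (r = 0.991), Nfib (r = 0.989) and Sox5 (r = 0.989). Nearest to Grin2d 1442328_at were Idh3a (r = 0.992), Ehmt2 (r = 0.991) and Macf1 (r = 0.990), and to Grin2c they were Kl (r = 0.988), Lrrc23 (r = 0.987) and Cyp4f16 (r = 0.986). Over the 24 arrays r was lower for the Grin2a genes (0.821, 0.826 and 0.760, in the same order) and the Grin2b genes (0.802, 0.882 and 0.905). It was 0.932, 0.911 and 0.935 for the Grin2d genes and 0.625, 0.716 and 0.473 for the Grin2c genes. These genes have the highest correlations among probe sets with 1 gene symbol and a similar or larger spread over the groups, leaving out unnamed and predicted genes and other probe sets of the same member. The 8 points share their arrays.

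Facts of the whole array set move with these results. The standard deviation of an array around its group mean lay between 0.0903 and 0.190, and was highest for IBET858 at 12 h replicate 3 and DMSO at 2 h replicate 1. Without both of these arrays, Grin3a 1436575_at and 1438866_at were at -1.46 and -1.74 for IBET858 against DMSO at 12 h. The 24 poly-A control probe sets, which read RNAs of other organisms, were higher by 0.96 with IBET858 than with DMSO at 12 h, and the 18 hybridisation controls by 0.25. Neuron markers were 7 higher and 11 lower of 30 in that comparison (median -0.25), with array means between -0.50 and -0.29 with IBET858 and between -0.23 and -0.15 with DMSO. Of all probe sets 20.8% were called higher and 20.6% lower in it. Astrocyte markers were 2 higher and 13 lower of 32, with array means of -0.41 to -0.27 with IBET858 and -0.11 to 0.35 with DMSO. Microglia markers were 0 higher and 5 lower of 12, with -0.41 to -0.32 with IBET858 and -0.09 to -0.02 with DMSO. Oligodendrocyte lineage markers were 1 higher and 4 lower of 19, with -0.26 to -0.13 with IBET858 and -0.07 to 0.06 with DMSO. Progenitor markers were 2 higher and 0 lower of 14, with -0.06 to 0.09 with IBET858 and -0.07 to 0.08 with DMSO. For BDNF against DMSO at 12 h, neuron markers were 8 higher and 13 lower of 30, astrocyte markers 1 and 8 of 32, microglia markers 0 and 4 of 12, oligodendrocyte lineage markers 1 and 3 of 19, and progenitor markers 4 and 1 of 14. Over all probe sets 15% were called higher and 18.4% lower. For BDNF with IBET858 against BDNF at 12 h, neuron markers were 7 higher and 14 lower of 30, with array means of -0.26 to -0.24 with both agents and -0.12 to -0.08 with BDNF alone. In that comparison astrocyte markers were 3 higher and 5 lower of 32, microglia markers 0 and 2 of 12, oligodendrocyte lineage markers 1 and 3 of 19, and progenitor markers 2 and 2 of 14. It called 19.8% of all probe sets higher and 20.4% lower. The part of these shifts in the NMDA receptor results was not tested, and centred values cannot show which markers were absent.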

How the data were processed

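RNA was measured on 24 arrays in 8 groups of 3 (4 treatments, 2 h or 12 h). The authors deposited 1 table of log2 values made with RMA, per the submitters' processing notes, whose version is not given in the sources used here. In the deposited log2 table the median of 45101 of 45101 probe sets was 0 over the arrays, within 1e-06, so levels, background and detection could not be used, and no dim probe set was removed. Names came from the platform's annotation, which lists 34958 probe sets with 1 gene symbol, 932 with several and 9211 not at all, and the members' Entrez IDs matched the RefSeq gene table. The members and lists were chosen with earlier results of these data known.

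The 64 control probe sets were left out, and limma 3.58.1 in R 4.3.3 fitted 1 mean per group to the other 45037, with 16 residual degrees of freedom, eBayes and two-sided tests in 14 contrasts and 2 contrasts added later. Benjamini-Hochberg adjustment covered all probe sets of a contrast. The fit was tested on simulated data. Every member is described at 12 h, and at 2 h by its values or its range of differences. Of each list, up to 4 genes with the largest called change for IBET858 against DMSO at 12 h are named. Their values are those of the probe set with that change, and other probe sets of the gene can differ. The 3 genes most like each member gene were taken by Pearson r over the 8 group means. Replicates of a group were compared, and none held identical values. Alternatives were array scaling, array weights, a replicate block, arrays left out, named probe sets alone, gene means, 1 time per fit and a robust prior.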

Additional observations from a re-analysis of the deposited data

Results flagged for a closer look

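Several members differed between conditions by a test of the difference itself (limma, adjusted p under 0.05). The dependence of the IBET858 difference on BDNF at 12 h was -0.53 for Grin2b 1431700_at and 0.57 for Grin3a 1438866_at, opposite in sign. Neither call held under every setting. The Grin2b call was lost with array weights (-0.40, adjusted p = 0.0547), among others, and the Grin3a call with quantile normalization (0.17, adjusted p = 0.644). Grin3a 1458378_at was at -0.24 in the same test, without a call (adjusted p = 0.255). Between times, the IBET858 difference at 12 h minus that at 2 h was -1.76 for Grin3a 1436575_at, -1.94 for Grin3a 1438866_at, -0.74 for Grin2b 1442370_at and -0.53 for Grin2d 1442328_at.

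With BDNF present, the IBET858 difference at 12 h minus that at 2 h was -1.07, -1.13 and -0.45 for Grin3a 1436575_at, 1438866_at and 1458378_at. In the same contrast Grin2b gave -0.56 for 1431700_at, -0.85 for 1442370_at and -0.95 for 1457003_at, Grin2c gave -0.55, and Grin2d 1442328_at gave -0.49. The BDNF difference at 12 h minus that at 2 h was 0.90, 0.97 and 0.45 for the 3 Grin3a probe sets in the same order, and 0.48 for Grin2b 1431700_at.

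Outside the members, the 24 poly-A control probe sets were higher by 0.96 with IBET858 than with DMSO at 12 h, with array means between 0.50 and 0.91 with IBET858 and between -0.50 and -0.04 with DMSO. The difference was 0.56 for BDNF with IBET858 against BDNF and 0.14 for IBET858 against DMSO at 2 h. Its part in the NMDA receptor results was not tested.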

How the results depend on the processing

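Each of the 16 contrasts was recomputed under every alternative that applies to it. The share of all probe sets called was not recorded for the alternatives. The member counts in this section therefore have no background beside them, and a moved count may go with a moved background. The 12 h counts of 5 lower (IBET858 against DMSO), 8 lower (BDNF with IBET858 against BDNF) and 6 higher (BDNF against DMSO) stayed within 1.5 times under each of them. Using replicate number as a replicate block gave 5, 8 and 6 again and changed no call. Same-numbered arrays deviated from their group means with r between -0.249 and 0.405 (median 0.027, against -0.015 for different numbers), and 11 of 24 arrays correlated best with their own number, so the numbers were not taken as pairs.

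Other counts moved, and the cause was not tested. Quantile normalization gave 1 for IBET858 against DMSO at 2 h, 2 for BDNF against DMSO at 2 h, 2 for both agents against IBET858 at 2 h and 1 for the interaction at 12 h. It narrows arrays of wide spread: the standard deviation over all probe sets was 0.42 to 0.50 with IBET858 at 12 h, against 0.24 to 0.29 with DMSO. Under it Grin3a 1436575_at in IBET858 against DMSO at 12 h went from -1.54 to -0.99. Not every difference at 12 h became smaller. Grin2a in BDNF against DMSO at 12 h was between 0.65 and 0.74 over all settings other than single arrays left out. The part of the narrowing in the lost calls was not tested. Array weights gave 1 for IBET858 against DMSO at 2 h, 2 for both agents against BDNF at 2 h, 1 for BDNF against DMSO at 2 h, 2 for both agents against IBET858 at 2 h, 1 for the interaction at 12 h, 1 for DMSO between times and 4 for both agents against DMSO at 2 h. Without the 2 arrays that stood apart the counts were 2 for both agents against BDNF, 1 for BDNF against DMSO, 3 for both agents against IBET858 and 3 for both agents against DMSO, all at 2 h, and 1 for DMSO between times.

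Gene means, which give all probe sets of a gene 1 value, gave 7 for the IBET858 difference between times, 7 for the BDNF difference between times and 6 for both agents against DMSO at 12 h. They turned the sign of Grin2b 1422223_at in IBET858 against DMSO at 12 h (-0.36) and between times (-0.35), of Grin2b 1457003_at in BDNF against DMSO at 12 h (0.32), of Grin2b 1422223_at and 1431700_at in both agents against DMSO at 12 h (-0.22), and of Grin3a 1458378_at in the 12 h interaction (0.23). The averaging of unlike probe sets makes these values.

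With 1 array left out, counts at 2 h ranged over 0 to 1 for IBET858 against DMSO, 0 to 2 for both agents against BDNF, 0 to 1 for BDNF against DMSO, 0 to 1 for both agents against IBET858, 0 to 1 for the interaction and 0 to 2 for both agents against DMSO. At 12 h they ranged over 3 to 5 for both agents against IBET858 (5 without IBET858 replicate 2) and 1 to 3 for the interaction. Quantile normalization also ended the calls of Grin2b 1442370_at in the IBET858 difference between times (-0.49, adjusted p = 0.0544), and, with BDNF present, of Grin2d 1442328_at (-0.23, adjusted p = 0.209) and Grin3a 1458378_at (-0.38, adjusted p = 0.0515). It ended those of Grin2b 1431700_at in the BDNF difference between times (0.35, adjusted p = 0.0902) and of Grin2d 1442328_at in both agents against IBET858 at 12 h (-0.11, adjusted p = 0.523). Gene means ended the calls of Grin2d 1442328_at in IBET858 against DMSO at 12 h (-0.14, adjusted p = 0.225) and between times (-0.28, adjusted p = 0.106), and of Grin2b 1431700_at in the 12 h interaction (-0.19, adjusted p = 0.227). Signal over background is unknown, so no member can be called undetected.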
